A study of Mus musculus with 16 samples.

Results

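The comparison described here is the response of ear skin to phorbol 12-myristate 13-acetate (PMA) in mice kept on a normal diet (ND). Its members were chosen by sample title: 4 libraries from PMA-treated ears (ND_PMA) and 4 from non-treated ears (ND_cont), 8 of the 16 libraries of the series. The mice were of the B6 strain; age and sex are not given in the labels. PMA was applied at 200 ng per ear and the ear was collected 24 hours later. The labels do not say whether control ears received the solvent of PMA. Every group of the series has 4 mice, and the design text counts 4 mice per group, so each library was taken as 1 mouse. The other 8 libraries come from mice fed a high-fat diet (HFD) for 8 weeks, with (HFD_PMA) and without PMA (HFD_cont), and serve here to ask whether the response was alike in other animals. Of 48440 genes in the count table, 17604 had enough counts to be tested.

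PMA is a diacylglycerol mimic that activates protein kinase C and the exchange factors of the RasGRP family. In skin it is the classic tumour promoter and irritant. A single application is known to switch on the AP-1 transcription factors (dimers of Fos and Jun proteins), to drive keratinocytes into a wound-like proliferative state with thickening of the epidermis, and to draw neutrophils and monocytes into the dermis. The sections below follow that order: the receptors of PMA and the transcription factors under them, the keratinocyte genes, the cell cycle, the cytokines and chemokines, the leukocyte markers, and the genes that were lower after PMA. Levels are given as counts per 1000000 (CPM) of the scaled library total, and differences as log2 fold changes of PMA-treated over untreated, with standard errors (SE).

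The libraries held between 7739487 and 10339316 counts in the untreated group and between 10009822 and 15571389 in the PMA-treated group, an exact two-sided permutation p of 0.0857, where 0.0286 is the smallest that 4 against 4 allows. Mitochondrial genes took 1.48 to 2.18% of counts without PMA and 1.35 to 2.44% with it. The 50 most abundant genes took 15.1 to 16% and 14.5 to 14.7% (exact permutation p = 0.0286, 0.114 after Benjamini-Hochberg adjustment over 4 measures). The library IDs fall into 2 series, RHS and RHP; what these stand for is not given. All 4 untreated ND libraries are RHS and all 4 PMA-treated ones RHP, so treatment and library series cannot be told apart within this comparison. Only among the HFD controls do both series occur (replicate 1 is RHS, the other 3 RHP), and a fit with the series as a covariate rests on that contrast. Its counts are given beside the groups of genes. PMA-treated mouse 2 stood apart from the other PMA-treated mice, with correlations of 0.926 to 0.936 with them, where the other pairs of that group gave 0.947 to 0.959. Untreated mouse 4 had higher Krt16 and Krt6b than the other untreated mice. Counts without these 2 libraries, an alternative added after the data were seen, are given where they differ. Ear tissue was evident from keratinocyte, cartilage and muscle markers in every library: untreated means were 2693 ± 511 CPM for Krt5, 109 ± 32.7 for Acan and 2388 ± 1041 for Acta1 (SD, n = 4). The strand setting of the read counting is not given, and the library type does not keep the strand. Of 161 genes named by the rule with an annotated position, 34 overlap exons of another gene. For 27 of these all overlap lies on the other strand.

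By edgeR's quasi-likelihood test, 2279 of 17604 genes (12.9%) passed a Benjamini-Hochberg adjusted p of 0.05 and are called changed here. Of these, 1577 were higher after PMA (8.96% of genes tested) and 702 lower (3.99%). The share of higher calls was 69.2%; it was 58.4% with DESeq2 and 58.5% with upper-quartile scaling. Of the higher genes 632 (40.1%) changed at least 2-fold and 96 at least 8-fold, and of the lower genes 198 (28.2%) and 20. The 4 values of each group did not overlap for 1865 genes that were higher (10.6%) and 1100 that were lower (6.25%), called or not. The median log2 fold change over all genes was 0.0013. With the library series as a covariate 453 genes were called (388 higher and 65 lower), 411 of them shared with the 2279, and 2270 of the 2279 kept the sign of their change. The gene lists below were counted against these background shares, without a test of the list. A gene near 0 without PMA passes the filter only through the libraries where it is high. Counts and medians of lists with such members, among them the cytokine, chemokine, neutrophil and antimicrobial lists, are therefore descriptions.

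**Figure D1:**
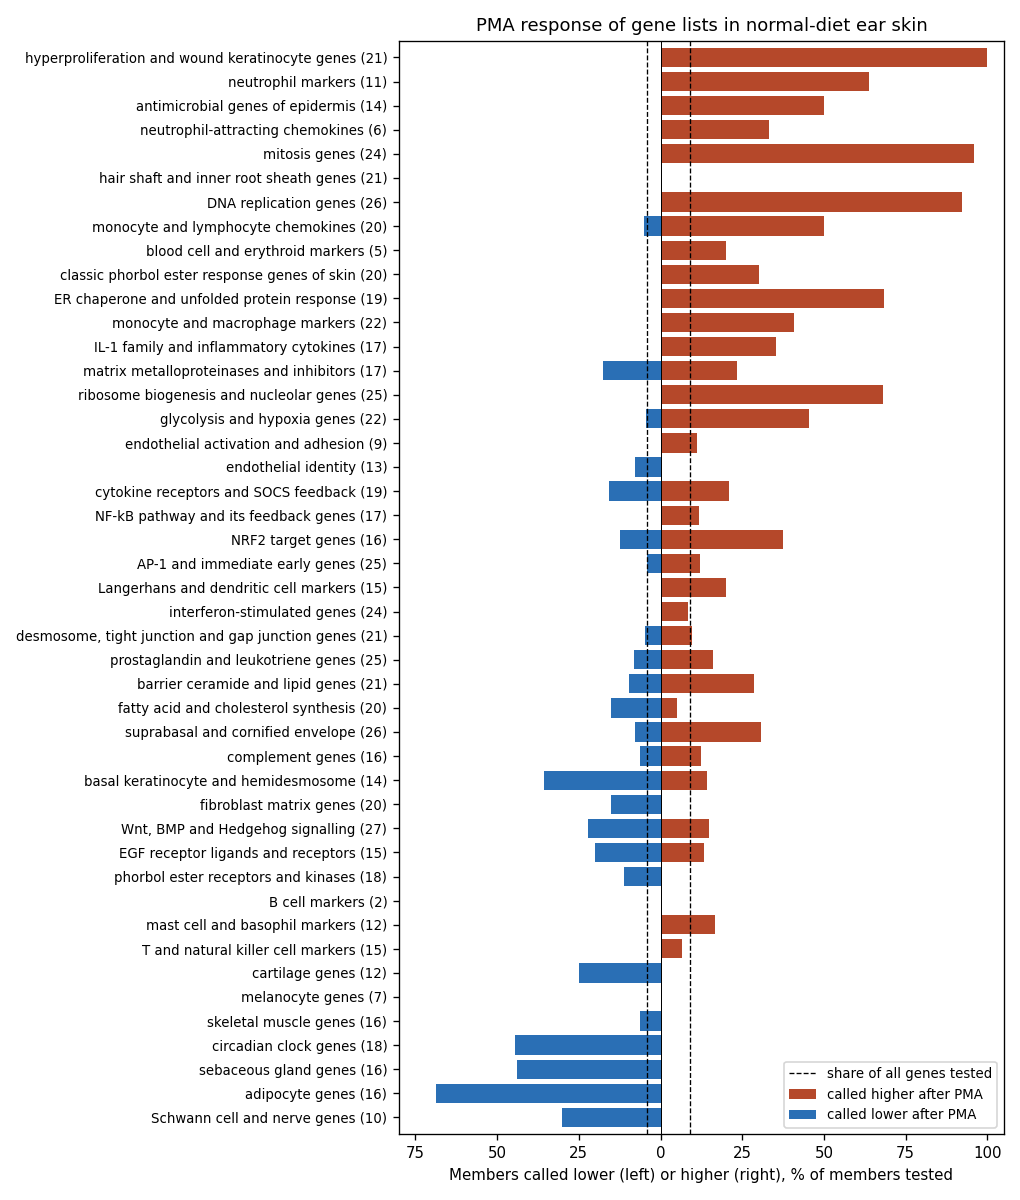
Share of the tested members of each of 45 gene lists that were called higher (right, red) or lower (left, blue) after PMA in normal-diet ear skin, in percent of members tested; the number tested stands in brackets and the dashed lines mark the 8.96% and 3.99% of all genes. Lists are ordered by their median log2 fold change. Wound keratinocyte, DNA replication and mitosis genes reach the highest shares of higher calls, and adipocyte, clock and sebaceous genes the highest shares of lower calls.

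No receptor of PMA was called higher 24 hours after treatment. Of 18 genes for protein kinase C isoforms, protein kinase D, RasGRP proteins and chimaerins, 0 were called higher and 2 lower. The 2 are 11.1% of the list, beside 3.99% of all genes, and the median log2 fold change was -0.19. Prkcd, an isoform prominent in keratinocytes, read 185, 190, 177 and 192 CPM in untreated mice 1 to 4 and 159, 173, 177 and 153 CPM in PMA-treated mice 1 to 4 (log2 fold change -0.17 ± 0.10, adjusted p = 0.296). Prkch, the isoform of the differentiating layers, had means of 121 ± 28.0 and 113 ± 15.4 CPM, and Prkca had 40.1 ± 15.8 and 41.2 ± 5.57 CPM (SD, n = 4 each). The 2 called genes were Prkd2 and Rasgrp1. Prkd2, a kinase activated by protein kinase C, read 37.3, 36.8, 63.2 and 45.7 CPM without and 19.8, 26.8, 28.2 and 31.0 CPM with PMA, 2 ranges that do not overlap (fell by 0.79 ± 0.19 on the log2 scale, adjusted p = 0.00858). Rasgrp1, the diacylglycerol-responsive Ras activator, went from 72.5 ± 5.65 to 50.7 ± 5.46 CPM (adjusted p = 0.0408). Its call was lost when any 1 library other than PMA-treated mouse 2 was left out, with adjusted p up to 0.112. With the library series as a covariate neither was called.

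Among 25 AP-1 and immediate early genes, 3 were called higher and 1 lower (background 8.96% and 3.99%), with a median of 0.16. Junb, a Jun family member, read 205, 179, 221 and 175 CPM without PMA and 319, 440, 323 and 300 CPM with it. Every PMA-treated mouse lay above every untreated one, and PMA-treated mouse 2 was the highest (log2 fold change 0.83 ± 0.14, adjusted p = 0.000378). Dusp6, the feedback phosphatase of ERK kinases, rose from 53.6 ± 14.4 to 92.0 ± 21.1 CPM (0.78 ± 0.19, adjusted p = 0.00874), a call lost without PMA-treated mouse 2 and untreated mouse 4 together. Atf3, a stress-induced partner of AP-1, read 33.8, 6.34, 19.0 and 10.3 CPM without and 88.6, 103, 41.3 and 59.7 CPM with PMA (2.08 ± 0.63, adjusted p = 0.0432). That call was lost when any library but untreated mouse 1 or PMA-treated mouse 3 was left out (adjusted p up to 0.113), and the sign turned with the series as a covariate (-0.88, adjusted p = 0.802). Fosb was lower, at 49.5, 8.23, 22.6 and 8.98 CPM against 3.48, 7.01, 2.46 and 0.308 CPM (-2.71 ± 0.85, adjusted p = 0.0476); leaving out untreated mouse 1 or 3 or PMA-treated mouse 1, 3 or 4 ended that call (adjusted p up to 0.138).

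The genes that give AP-1 its founding members did not pass the test at this time. Fos had means of 18.7 ± 11.8 and 26.3 ± 13.7 CPM, Jun 110 ± 19.9 and 94.4 ± 13.9 CPM, Fosl1 6.12 ± 2.93 and 8.00 ± 1.92 CPM and Egr1 93.2 ± 27.5 and 67.7 ± 25.6 CPM (adjusted p between 0.276 and 0.586). The 2 groups overlapped for each of them. With the series as a covariate 0 genes of the AP-1 list were called.

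The NF-kB list showed 2 of 17 genes called higher (11.8%, near the 8.96% of all genes) and 0 lower. Both are feedback regulators, a kind of gene that the list was put together to hold. Bcl3, an atypical inhibitor that binds p50 and p52 in the nucleus, read 5.18, 4.16, 2.50 and 5.16 CPM without PMA and 21.9, 23.1, 14.9 and 18.8 CPM with it (log2 fold change 2.21 ± 0.25, adjusted p = 6.79e-06). Zc3h12a, an RNase that degrades inflammatory messenger RNAs, rose from 10.2 ± 2.77 to 32.4 ± 9.21 CPM (1.67 ± 0.25, adjusted p = 0.000144). Bcl3 remained called with the series as a covariate (adjusted p = 0.00363) and Zc3h12a did not (0.0796). Nfkbia, the inhibitor that NF-kB itself induces, had means of 147 ± 36.9 and 116 ± 23.8 CPM, and Tnfaip3 26.5 ± 4.18 and 23.2 ± 6.68 CPM, both without a call.

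Of 20 genes long used as readouts of phorbol ester action in skin, 6 rose and 0 fell, with a median of 1.03; DESeq2 called 8 and the fit with the series as a covariate 5. Timp1, the inhibitor of matrix metalloproteinases, read 2.22, 0.946, 1.25 and 3.37 CPM in untreated mice and 36.2, 42.6, 38.6 and 29.5 CPM after PMA. This is an 18.9-fold difference of means with narrow spread on both sides (log2 fold change 4.26 ± 0.35, adjusted p = 1.02e-07). Mmp3 (stromelysin 1) rose from 68.6 ± 9.56 to 303 ± 61.4 CPM (2.14 ± 0.26), Tnc (tenascin C) from 62.4 ± 16.6 to 250 ± 85.1 CPM (2.00 ± 0.24) and Cd44 (the hyaluronan receptor) from 162 ± 15.4 to 334 ± 63.2 CPM (1.04 ± 0.12). Odc1, the polyamine enzyme whose activity is the oldest marker of tumour promotion, read 34.2, 22.9, 36.6 and 39.4 CPM against 63.1, 50.8, 50.5 and 48.5 CPM. The groups do not overlap, but the call (0.68 ± 0.20, adjusted p = 0.0255) was lost without untreated mouse 2 or PMA-treated mouse 1 (adjusted p up to 0.118) and with the series as a covariate. Ptgs2 (cyclooxygenase 2) was low in both groups, 4.96 ± 3.59 and 4.63 ± 3.44 CPM (adjusted p = 0.960), and Mmp9 had 25.4 ± 6.99 and 35.9 ± 22.5 CPM (adjusted p = 0.431).

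Keratinocyte genes of the wound and hyperproliferation programme gave the highest share of calls among the 45 lists. Of the 22 genes listed, 21 passed the filter and all 21 were called higher, with a median log2 fold change of 4.09; since a gene that is near 0 without PMA passes the filter only through its PMA level, this count is a description of the list. Sprr3 had 0 counts in all 8 libraries. With the series as a covariate 18 were called, and 19 without PMA-treated mouse 2 and untreated mouse 4. Krt16, a keratin of wounded and hyperproliferative epidermis (chromosome 11, 100246091 to 100248902 in GRCm38), read 17.6, 13.4, 26.3 and 102 CPM without PMA and 1528, 2057, 2905 and 2837 CPM with it. The difference of means was 58.5-fold (log2 fold change 5.87 ± 0.70, adjusted p = 0.000132), and untreated mouse 4, the highest control, still lay below the lowest PMA-treated mouse. Krt6a and Krt6b, the keratins that pair with it, showed the same layout. Krt6a read 33.3, 43.9, 39.1 and 170 CPM against 890, 1586, 1504 and 1485 CPM, and Krt6b 2.96, 2.08, 3.94 and 110 CPM against 820, 1391, 1768 and 1944 CPM. Krt6b was not called when the 8 libraries were fitted alone or with the series as a covariate (adjusted p = 0.0676 in the latter). Krt17, a keratin of appendages and wounds, was already present without PMA and rose from 642 ± 130 to 3091 ± 691 CPM (2.27 ± 0.20, adjusted p = 1.86e-07).

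Per kilobase of annotated gene length, which allows levels of different genes to be set side by side, Krt16 moved from 25.4 to 1490 CPM per kb and Krt17 from 414 to 1993 CPM per kb. Krt14, the keratin of the basal layer, had 3345 and 6745 CPM per kb and Krt10, the main suprabasal keratin, 1971 and 1821 CPM per kb. After PMA Krt16 therefore lay below, and Krt17 above, both Krt10 and Krt5 (1783 CPM per kb), where Krt5 had 1230 CPM per kb without PMA.

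Small proline-rich proteins (Sprr), cross-linked precursors of the cornified envelope, rose from low levels. Sprr1b read 9.75, 5.30, 6.63 and 12.8 CPM without and 166, 152, 120 and 138 CPM with PMA (log2 fold change 4.07 ± 0.37, adjusted p = 1.31e-06). Sprr2h read 1.73, 0.757, 1.06 and 1.46 CPM against 35.2, 54.7, 35.5 and 32.7 CPM (5.00 ± 0.44, adjusted p = 2.68e-07). Sprr1a rose from 83.0 ± 21.5 to 339 ± 28.2 CPM, Sprr2d from 1.55 ± 0.960 to 24.6 ± 9.51 CPM and Sprr2a3 from 1.45 ± 1.63 to 44.5 ± 5.92 CPM. The Sprr2a genes are near-identical copies, and the exons of Sprr2a1 and Sprr2a2 share 43 bases, so reads may be split or lost among them. The gap junction genes Gjb2 and Gjb6 rose from 38.0 ± 21.6 to 228 ± 85.9 CPM and from 5.11 ± 2.10 to 30.0 ± 5.14 CPM. The late envelope gene Lce3d, a member of the cluster that responds to barrier damage, rose from 0.522 ± 0.340 to 17.1 ± 3.13 CPM, while Lce1m of the constitutive late envelope genes fell from 175 ± 40.1 to 70.5 ± 8.30 CPM (-1.31 ± 0.29, adjusted p = 0.00532).

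**Figure D2:**
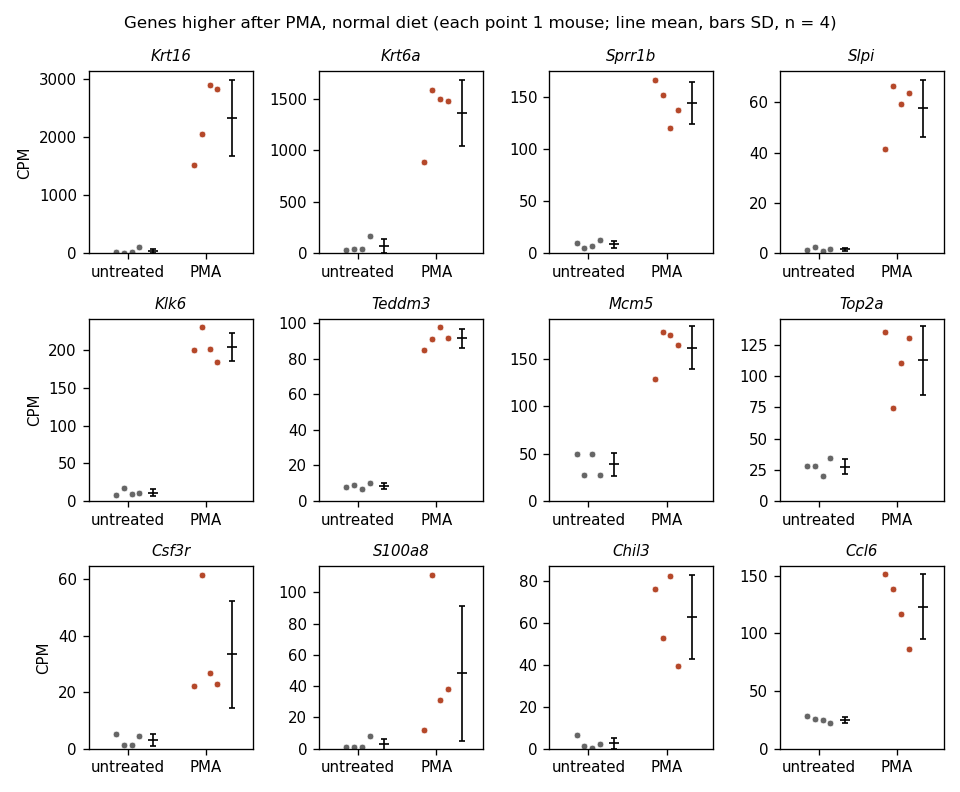
CPM of 12 genes called higher after PMA, in each of the 4 untreated and 4 PMA-treated normal-diet mice (1 point per mouse, linear axis from 0; the line and bars beside the points give the mean and SD). The groups do not overlap in any panel; untreated mouse 4 is the highest control for Krt16 and Krt6a, and PMA-treated mouse 2 the highest point for Csf3r (61.6 CPM) and S100a8 (111 CPM).

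AP-1 binds the sequence TGANTCA, in which N is any base, and this was sought on both strands in the 250 bases before the annotated starts (RefSeq promoters, build GRCm38.p6). It was present in 6 of 17 promoters of the wound list (35.3%) and 8 of 18 of the classic phorbol list (44.4%), against 6.75% of all promoters of the same length. Among all genes called higher the share was 6.09%, and among those called lower 5.61%, beside 5.27% for the promoters of all genes tested. These 2 lists were put together from genes known to answer PMA, so the share is a description. The wound list matches all lay in Sprr genes (Sprr1a, Sprr1b, Sprr2d, Sprr2e, Sprr2f and Sprr2h). Those of Sprr2d and Sprr2e both begin 193 bases before the start, in similar sequence. Of the classic phorbol genes called higher only Mmp3 had a match, and the other matches of that list were in genes without a call. Matches in 4 genes that rose are shown, on the strand of the gene, with the motif in capitals.
Sprr1a: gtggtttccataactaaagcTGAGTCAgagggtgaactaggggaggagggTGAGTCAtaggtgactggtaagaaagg
Sprr1b: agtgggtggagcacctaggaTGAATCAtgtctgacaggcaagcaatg
Sprr2h: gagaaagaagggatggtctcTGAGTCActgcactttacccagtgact
Mmp3: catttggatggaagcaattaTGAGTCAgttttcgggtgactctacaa
The Sprr1a window (chr3:92485971-92486047, minus strand) holds 2 matches that begin 146 and 116 bases before the start site. Those of Sprr1b (chr3:92438864-92438910, minus strand), Sprr2h (chr3:92385467-92385513, plus strand) and Mmp3 (chr9:7445756-7445802, plus strand) hold 1 each, at 111, 198 and 46 bases. A match is a stretch of letters; binding was not measured here. No promoter of the DNA replication list (26) or the mitosis list (21) held this sequence.

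The differentiation and basal keratins did not move as a block. Of 26 suprabasal and cornified envelope genes 8 were called higher and 2 lower (DESeq2 called 6 lower), with a median of -0.03; the counts were 4 and 0 with the series as a covariate. Klk6 and Klk7, trypsin-like and chymotrypsin-like kallikreins of the epidermis, were among those that rose. Klk6 (chromosome 7, 43824499 to 43832030) read 7.28, 17.6, 9.04 and 10.4 CPM without PMA and 200, 231, 202 and 185 CPM with it, 18.4-fold between means (log2 fold change 4.19 ± 0.23, adjusted p = 6.02e-10). Klk7 rose from 648 ± 93.0 to 1343 ± 136 CPM (1.05 ± 0.11). Krt10 had 4166 ± 206 and 3849 ± 446 CPM, loricrin (Lor) 543 ± 125 and 528 ± 111 CPM and filaggrin (Flg) 155 ± 23.5 and 133 ± 33.3 CPM, all with overlapping groups and adjusted p of at least 0.593. Krt1 rose from 597 ± 178 to 1045 ± 156 CPM (adjusted p = 0.0121), a call lost without untreated mouse 2 (0.065).

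Among 14 basal keratinocyte and hemidesmosome genes 2 rose and 5 fell (1 and 2 with the series as a covariate). Krt14 read 5619, 5921, 7396 and 4583 CPM against 10989, 11553, 13034 and 11855 CPM, with no overlap (1.01 ± 0.13, adjusted p = 2.98e-05). Krt5 rose from 2693 ± 511 to 3905 ± 350 CPM (0.54 ± 0.11, adjusted p = 0.00333), and was not called when the 8 libraries were fitted alone. Krt15, a keratin of quiescent basal cells and of the hair follicle bulge, moved the other way: 5817, 5349, 4687 and 4333 CPM without PMA and 1675, 1686, 1334 and 1510 CPM with it, 3.25-fold lower (-1.70 ± 0.19, adjusted p = 6.89e-06, and called with the series as a covariate). Hemidesmosome parts were also lower. Lamb3, a chain of laminin-332, fell from 320 ± 22.6 to 185 ± 20.5 CPM (-0.79 ± 0.11), Dst, the plakin that ties keratin to hemidesmosomes, from 964 ± 117 to 569 ± 107 CPM (-0.76 ± 0.14), and Col17a1 from 2920 ± 359 to 2244 ± 218 CPM (-0.38 ± 0.11, adjusted p = 0.0302). The Col17a1 call was lost without untreated mouse 3 or 4 or PMA-treated mouse 1 (adjusted p up to 0.105). In whole skin a lower level can mean fewer cells of a type or less RNA per cell, and these cannot be told apart.

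Cell cycle genes rose almost as a whole. Of 26 DNA replication genes 24 were called higher and 0 lower (median 1.39), and of 24 mitosis genes 23 were higher and 0 lower (median 1.53); with the series as a covariate the counts were 16 and 13. Mcm5, a subunit of the replicative helicase, read 49.6, 27.5, 49.3 and 27.7 CPM without PMA and 129, 179, 175 and 165 CPM with it (2.07 ± 0.24, adjusted p = 8.93e-06). Rrm2, the regulatory subunit of ribonucleotide reductase, rose from 36.2 ± 5.40 to 154 ± 14.9 CPM and Uhrf1, which copies DNA methylation behind the fork, from 22.4 ± 4.51 to 97.4 ± 22.6 CPM. Ccne1, the cyclin of the entry into S phase, read 0.864, 5.20, 1.83 and 4.38 CPM against 26.4, 25.7, 21.2 and 27.8 CPM. E2f1, a transcription factor of the entry into S phase, had 5.85 ± 2.15 and 11.2 ± 1.68 CPM without a call (adjusted p = 0.125).

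In mitosis, Top2a (topoisomerase II alpha) read 28.0, 27.6, 20.4 and 34.3 CPM without and 135, 74.7, 111 and 130 CPM with PMA (2.03 ± 0.22, adjusted p = 4.53e-06). Plk1, the polo-like kinase, rose from 11.8 ± 3.82 to 38.3 ± 3.67 CPM, Aurkb, the kinase of the chromosomal passenger complex, from 15.1 ± 2.11 to 54.7 ± 6.23 CPM and Ccna2 (cyclin A2) from 17.6 ± 4.78 to 62.8 ± 12 CPM. Mki67, the proliferation antigen, read 45.4, 44.4, 25.8 and 56.6 CPM against 106, 50.2, 106 and 119 CPM. PMA-treated mouse 2 overlapped the untreated mice for Mki67 and had the lowest Top2a of its group. The Mki67 call (adjusted p = 0.0166) was lost without untreated mouse 3 or PMA-treated mouse 4 (up to 0.0618). Bub1, a kinase of the spindle checkpoint, went from 2.38 ± 2.05 to 10.4 ± 5.75 CPM, and its call (adjusted p = 0.0350) was lost without untreated mouse 1 or PMA-treated mouse 1, 3 or 4 (up to 0.105). Cenpf was the mitosis gene without a call, at 16.4 ± 7.47 and 23.6 ± 10.8 CPM (adjusted p = 0.423).

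Mitotic genes are known to carry 2 promoter elements, CCAAT boxes bound by NF-Y and the cell cycle homology region TTTGAA. In the 250 bases before the start, either strand, CCAAT was present in 18 of 21 mitosis promoters (85.7%) and in 15 of 26 DNA replication promoters (57.7%), against 33.8% of all promoters and 37.3% of those of genes called higher. TTTGAA was present in 38.1% of the mitosis promoters and 16% of all. Its share was 11.2% for the promoters of genes tested and 14.1% for those of genes called higher. The windows below, on the strand of each gene, carry CCAAT or its complement ATTGG in capitals, and in the second Top2a window TTCAAA, the complement of TTTGAA.
Top2a, CCAAT: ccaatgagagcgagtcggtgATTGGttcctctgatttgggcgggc
Top2a, TTTGAA: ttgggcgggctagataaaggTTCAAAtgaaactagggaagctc
Bub1: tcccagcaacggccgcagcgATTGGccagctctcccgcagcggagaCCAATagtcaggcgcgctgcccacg
Mcm5: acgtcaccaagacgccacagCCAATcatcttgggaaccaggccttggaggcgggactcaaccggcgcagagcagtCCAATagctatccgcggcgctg
Rrm2: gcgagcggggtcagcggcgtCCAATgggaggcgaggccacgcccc
The Top2a promoter (chr11:99024223-99024267 and chr11:99024190-99024232, minus strand) holds 6 CCAAT matches in 250 bases, of which the nearest to the start, at 58 bases, is in capitals. Bub1 (chr2:127831877-127831947, minus strand) has 2 at 68 and 42 bases. Mcm5 (chr8:75109412-75109508, plus strand) has 2 at 77 and 22 bases, and Rrm2 (chr12:24708184-24708228, plus strand) 1 at 50 bases.

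Growth genes accompanied the cell cycle genes. Of 25 ribosome biogenesis and nucleolar genes 17 were called higher and 0 lower (median 0.61). The count fell to 10 without untreated mouse 2 and to 11 without untreated mouse 3 or PMA-treated mouse 3 or 4, and to 1 with the series as a covariate. Bop1, an assembly factor of the large subunit, rose from 58.5 ± 10.1 to 114 ± 13.8 CPM (0.96 ± 0.15, adjusted p = 0.000182). Nucleolin (Ncl) read 200, 202, 175 and 217 CPM against 389, 193, 451 and 430 CPM, where PMA-treated mouse 2 again lay within the untreated range. Of 19 genes for chaperones and the unfolded protein response of the endoplasmic reticulum 13 rose and 0 fell (median 0.92; 9 with the series as a covariate). Calr, the chaperone calreticulin, was among the 6 genes with the smallest p and read 90.7, 94.3, 111 and 99.3 CPM against 284, 295, 305 and 287 CPM (1.57 ± 0.11, adjusted p = 4.02e-08). Pdia6, a disulfide isomerase, rose from 172 ± 12.7 to 409 ± 35.4 CPM and Hspa5 (BiP) from 458 ± 31.1 to 920 ± 85.4 CPM. Ddit3 (CHOP), the gene of the terminal stress branch, had 12.1 ± 2.06 and 14.5 ± 3.91 CPM (adjusted p = 0.518) and Atf4 50.2 ± 12.3 and 67.7 ± 7.94 CPM (0.0843).

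Of 22 glycolysis and hypoxia genes 10 rose and 1 fell (median 0.59; 3 and 0 with the series as a covariate). Eno1 (enolase) read 192, 194, 226 and 169 CPM without and 417, 535, 461 and 461 CPM with PMA (1.26 ± 0.14, adjusted p = 6.79e-06), and Ldha (lactate dehydrogenase A) rose from 892 ± 143 to 1932 ± 165 CPM. Ndrg1, a hypoxia-inducible gene, was the one that fell, from 136 ± 12.3 to 92.9 ± 15.7 CPM. Of 16 targets of the antioxidant factor NRF2, 6 rose and 2 fell; 3 rose without untreated mouse 4, and 1 rose and 0 fell with the series as a covariate. Gsta4, the glutathione transferase for lipid aldehydes, read 5.43, 4.92, 4.13 and 7.63 CPM against 45.9, 45.2, 48.5 and 50.6 CPM (3.11 ± 0.25, adjusted p = 1.02e-07). Akr1b8, Slc7a11 and Gclm of the NRF2 targets were also called higher. The reporters Nqo1 and Hmox1 were not called: Nqo1 had 17.6 ± 0.711 and 19.5 ± 1.54 CPM (adjusted p = 0.697) and Hmox1 119 ± 24.2 and 138 ± 15.1 CPM (0.404).

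The ligands of the EGF receptor went in opposite directions. Hbegf (heparin-binding EGF) read 15.8, 8.04, 9.52 and 6.73 CPM in untreated and 27.5, 58.2, 28.5 and 30.4 CPM in PMA-treated mice (log2 fold change 1.86 ± 0.27, adjusted p = 9.20e-05). Epgn (epigen) read 0.494, 0.568, 0.288 and 1.12 CPM against 6.47, 22.2, 10.5 and 13.1 CPM (4.40 ± 0.47, adjusted p = 3.81e-06). For both, every PMA-treated mouse lay above every untreated one and mouse 2 was the highest. Betacellulin (Btc) fell, with 26.5, 20.4, 30.1 and 25.9 CPM against 6.14, 9.01, 7.44 and 13.5 CPM (-1.52 ± 0.44, adjusted p = 0.0255). Epiregulin (Ereg, 67.0 ± 21.3 to 35.8 ± 10.4 CPM) and the receptor Egfr (120 ± 20.2 to 91.9 ± 7.35 CPM) were also called lower, with adjusted p of 0.0452 and 0.0392. These 3 decreases were fragile. Btc was lost without untreated mouse 1, 3 or 4 or PMA-treated mouse 1 or 3 (adjusted p up to 0.0812), Ereg without untreated mouse 1, 3 or 4 or PMA-treated mouse 1, 2 or 4 (0.141), and Egfr without untreated mouse 3 or 4 or any PMA-treated mouse (0.150). Tgfa (66.2 ± 8.82 and 86.7 ± 9.89 CPM) and Areg (0.100 ± 0.136 and 0.648 ± 0.481 CPM) did not pass. Of the 15 genes, 2 were higher (13.3%) and 3 lower (20%), beside 8.96% and 3.99% of all genes. With the series as a covariate 1 was higher and 1 lower.

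Among the cytokines, those of the IL-36 branch, which keratinocytes release, were called and Il1a and Il1b were not. This describes calls and not the size of the change, since Il1b had a larger log2 fold change than Il1f6 or Il1f9. Of 17 tested genes of the IL-1 family and other inflammatory cytokines 6 were higher and 0 lower (median 0.69; 4 with the series as a covariate). Il1f6 (IL-36 alpha) read 11.0, 7.85, 4.71 and 5.50 CPM without and 28.3, 27.5, 23.3 and 30.7 CPM with PMA (1.93 ± 0.25, adjusted p = 2.44e-05). Il1f9 (IL-36 gamma) rose from 75.1 ± 11.4 to 149 ± 17.7 CPM (0.99 ± 0.13). Il1f8 (IL-36 beta) read 43.2, 49.9, 32.0 and 24.4 CPM against 59.2, 37.5, 73.5 and 70.8 CPM; its call (adjusted p = 0.0353) was lost without untreated mouse 3 or 4 or PMA-treated mouse 1, 3 or 4 (up to 0.121). Tslp, the epithelial cytokine that acts on dendritic cells, read 6.79, 4.35, 2.60 and 3.93 CPM against 32.8, 21.5, 27.2 and 32.7 CPM, 6.47-fold between means (2.70 ± 0.38, adjusted p = 6.97e-05; 0.373 with the series as a covariate). Il1a had 29.7 ± 3.08 and 27.5 ± 5.66 CPM (adjusted p = 0.742). Il1b read 5.68, 0.757, 0.577 and 0.898 CPM against 19.6, 36.1, 7.30 and 2.57 CPM, a spread in both groups that left it without a call (3.11 ± 1.07, adjusted p = 0.0748). In HFD mice, within the RHP libraries, Il1b was called higher by the same test (4.46, adjusted p = 0.000791), as were Il1f6 and Il1f9. Il1f8 (0.07, adjusted p = 0.828) and Il1a (-0.10, 0.765) were not called there.

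Cytokines of the IL-20 group were at the limit of detection without PMA. Il24 had 0 counts in all 4 untreated libraries and 30 counts after PMA, at least 7.42-fold higher against a floor of 3 counts over the untreated group. The Il24 call (adjusted p = 0.0300) was lost without any 1 untreated mouse or PMA-treated mouse 1 or 2 (up to 0.0686). Il19 had 0 counts against 116, at least 28.7-fold higher (adjusted p = 0.0157), but 6.56 CPM of it came from PMA-treated mouse 2 with 0.829, 0.289 and 0 CPM in mice 1, 3 and 4. The Il19 call was lost without PMA-treated mouse 2 and untreated mouse 4 together and with the series as a covariate. Il6 had 1 count in the untreated and 19 in the PMA-treated group and Csf3 had 1 and 56, the 56 all in PMA-treated mouse 2; both were below the filter.

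Receptors and their signal transducers moved with less amplitude: of 19 genes 4 were called higher and 3 lower, and 0 with the series as a covariate. Il4ra read 52.0, 44.3, 62.6 and 78.0 CPM against 152, 325, 147 and 95.6 CPM (1.61 ± 0.31, adjusted p = 0.00178). Stat3, the transducer of IL-6 type cytokines, rose from 332 ± 40.9 to 557 ± 85.6 CPM (0.75 ± 0.12) and the oncostatin M receptor Osmr from 45.7 ± 6.59 to 73.0 ± 12 CPM. Lifr, which signals through the same gp130 partner, fell from 161 ± 23.5 to 98.1 ± 31.4 CPM (-0.72 ± 0.19, adjusted p = 0.0167), a call lost without untreated mouse 4 (0.0647).

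Chemokines for monocytes and lymphocytes rose in larger number: 10 of 20 tested were called higher and 1 lower (median 1.38; 6 and 0 with the series as a covariate; 7 and 1 without PMA-treated mouse 2 and untreated mouse 4). Ccl6 read 28.1, 25.8, 25 and 21.9 CPM without PMA and 151, 139, 117 and 86.3 CPM with it (2.29 ± 0.18, adjusted p = 7.20e-08). Ccl9 rose from 10.9 ± 3.04 to 72.8 ± 22.3 CPM and Ccl22, the ligand of CCR4, from 4.37 ± 1.36 to 31.4 ± 7.35 CPM. The ligands of CCR2 followed. Ccl2 read 3.09, 2.93, 1.44 and 2.47 CPM against 14.3, 18.3, 11.1 and 6.78 CPM and Ccl7 3.83, 4.73, 3.08 and 2.69 CPM against 31.4, 40.8, 17.4 and 8.53 CPM; in both PMA-treated mouse 2 was highest and mouse 4 lowest. Ccl21a, the ligand of CCR7 made by lymphatic endothelium, fell from 69.3 ± 10.5 to 35.2 ± 13.9 CPM (-0.98 ± 0.22, adjusted p = 0.00416); its near-identical copies in the genome may share its reads.

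Of the 6 neutrophil-attracting chemokines tested 2 were called. Cxcl5 read 0, 0, 0 and 1.68 CPM in untreated mice and 12.3, 37.1, 6.43 and 6.27 CPM in PMA-treated mice (5.23 ± 0.99, adjusted p = 0.00169). Cxcl1 had 0.405 ± 0.194 CPM against 1.58, 7.98, 0.867 and 1.03 CPM, and its call (adjusted p = 0.00992) rested on PMA-treated mouse 2: without it the adjusted p was 0.104. Cxcl2 (0.763 ± 0.844 and 2.24 ± 2.69 CPM) did not pass, and Cxcl3 had 0 CPM in every untreated mouse and 0, 3.99, 0.144 and 0.103 CPM in the PMA-treated ones, nearly all of it in mouse 2, without a call (adjusted p = 0.0677). With the series as a covariate 0 of the 6 were called.

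Neutrophil and monocyte markers were higher, and markers of other leukocytes were mostly not called. Of 11 neutrophil markers tested 7 rose and 0 fell (median 3.45), 4 without PMA-treated mouse 2, 3 without untreated mouse 3 and 2 with the series as a covariate. The list has 16 members, and those near 0 without PMA, such as Cd177, pass the filter only through their higher libraries. The count and the median are therefore a description. Their summed level was 16.3 to 31.0 CPM in untreated and 122 to 361 CPM in PMA-treated mice. S100a8 and S100a9, the subunits of calprotectin, are also made by wounded keratinocytes. S100a8 read 0.987, 0.757, 1.25 and 8.19 CPM against 12.1, 111, 31.4 and 38.4 CPM, and its call (adjusted p = 0.0196) was lost without untreated mouse 1, 2 or 3 or PMA-treated mouse 2 (up to 0.0668). Csf3r, the receptor of granulocyte colony-stimulating factor, read 5.31, 1.42, 1.25 and 4.49 CPM against 22.1, 61.6, 26.9 and 22.8 CPM (3.45 ± 0.60, adjusted p = 0.000716). Cxcr2, the receptor of the Cxcl1 to Cxcl5 group, read 4.07, 5.77, 9.71 and 5.84 CPM against 39.98, 37.4, 33.2 and 29.7 CPM (2.46 ± 0.27, adjusted p = 5.71e-06). Csf3r and Cxcr2 remained called with the series as a covariate. Ly6g, the defining surface marker, had 0 counts in all 8 libraries, and the granule genes Camp (2 and 6 counts) and Ngp (4 and 2 counts) were near 0. Cd177, a surface protein of neutrophils, read 0, 0.378, 0.192 and 0.112 CPM against 10.04, 11.7, 14.6 and 5.34 CPM (5.77 ± 0.87, adjusted p = 0.000138).

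Of 22 monocyte and macrophage markers 9 rose and 0 fell (median 0.73; 3 with the series as a covariate), with a summed level of 1069 to 1205 CPM without and 1349 to 1909 CPM with PMA. Ccr2, the receptor of recruited monocytes, read 19.3, 20.1, 18.3 and 15.5 CPM against 141, 97.4, 159 and 87.9 CPM (2.73 ± 0.24, adjusted p = 2.75e-07). Fcgr1, the high-affinity IgG receptor, rose from 2.27 ± 1.13 to 8.89 ± 4.24 CPM and Ly6c2, the mark of inflammatory monocytes, from 0.320 ± 0.368 to 3.51 ± 1.58 CPM (lost without untreated mouse 2 or 3, adjusted p up to 0.0517). Genes of resident macrophages were divided. Mrc1 (mannose receptor) rose from 74.7 ± 17.6 to 167 ± 27.0 CPM and Cd163 from 68.1 ± 12.4 to 120 ± 23.2 CPM, while Csf1r had 192 ± 37.3 and 212 ± 43.6 CPM (adjusted p = 0.669) and Lyz2 324 ± 71.3 and 421 ± 57.5 CPM (0.120). Chil3 (Ym1), a chitinase-like protein of the same list, read 6.42, 1.04, 0.481 and 2.24 CPM against 76.3, 53.1, 82.7 and 39.7 CPM. Ms4a4a, a gene outside the list that is also known from myeloid cells, read 21.2, 18.6, 14.2 and 12.9 CPM against 118, 134, 126 and 83.9 CPM.

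Dendritic and Langerhans cell markers gave 3 of 15 called higher (0 with the series as a covariate): Cd209a (23.2 ± 6.25 to 69.4 ± 18.4 CPM), Ccr7, the receptor for migration to lymph nodes (2.16 ± 1.47 to 10.8 ± 0.965 CPM), and Irf8 (10.8 ± 5.14 to 22.7 ± 0.818 CPM; lost without untreated mouse 1, 3 or 4, adjusted p up to 0.0753). Cd207 (langerin), the Langerhans cell lectin, had 21.2 ± 2.05 and 19.9 ± 4.73 CPM and Cd74 944 ± 179 and 1066 ± 256 CPM, without a call. Among T and natural killer markers 1 of 15 was called higher (6.67%, below the 8.96% of all genes), also with the series as a covariate. It was Thy1, a gene that fibroblasts also express, from 17.3 ± 1.86 to 38.2 ± 2.36 CPM (1.14 ± 0.16, adjusted p = 5.32e-05). The defining T cell genes were not called: Cd3e had 7.0 ± 0.639 and 4.64 ± 1.25 CPM, Cd3d 2.43 ± 0.240 and 0.783 ± 0.546 CPM. Of 12 mast cell and basophil markers 2 were called higher (16.7%, beside 8.96% of all genes), and 0 with the series as a covariate. The mast cell genes Cpa3 (54.9 ± 17.7 and 40.7 ± 11.8 CPM) and Kit (23.1 ± 4.88 and 15.4 ± 7.46 CPM) did not pass. The basophil protease Mcpt8 had 0 counts against 65, at least 16.1-fold higher (adjusted p = 0.0341), with 2.74, 1.16, 1.01 and 0 CPM in PMA-treated mice. The Mcpt8 call was lost without any 1 library except PMA-treated mouse 4 (up to 0.0917). The B cell marker Cd79b stayed under 2 CPM in every library.

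**Figure D3:**
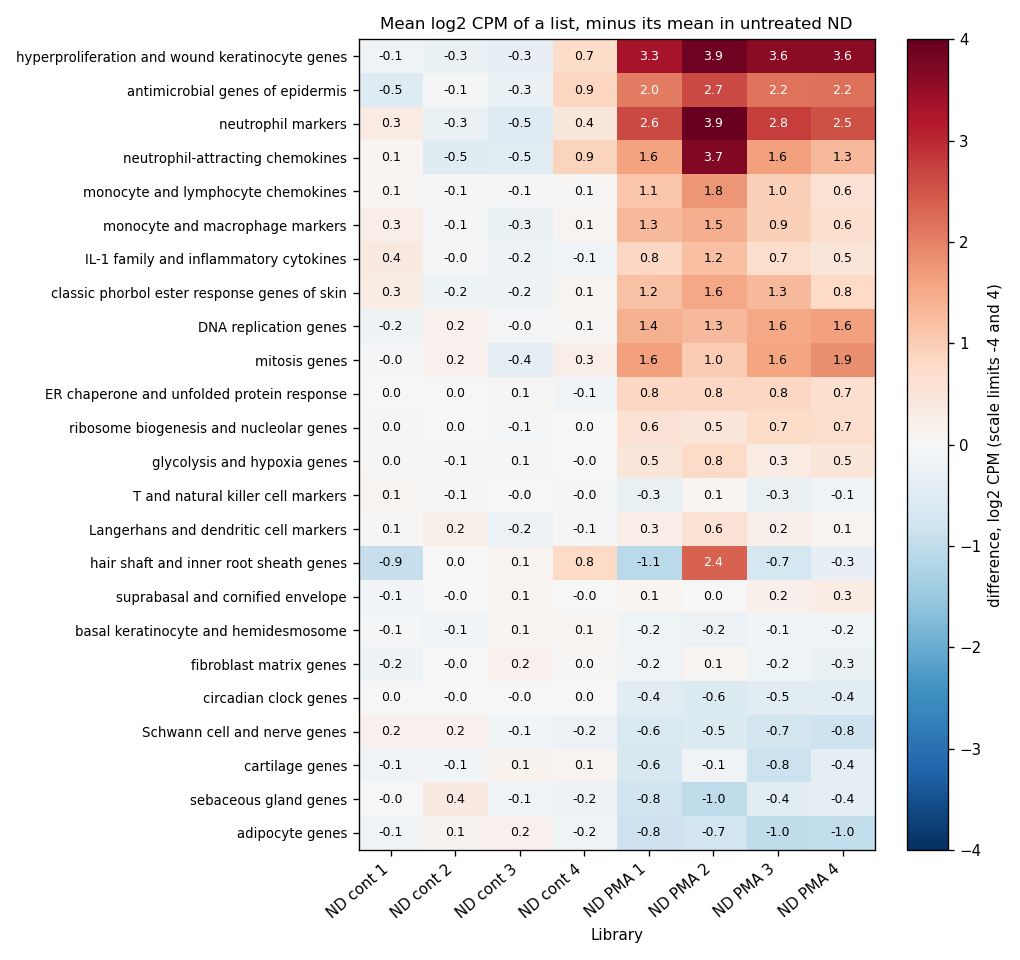
Mean log2 CPM of 24 gene lists in each normal-diet library, minus the mean of the 4 untreated libraries; columns are libraries, numbers and colours give the difference in log2 CPM (colour limits -4 and 4). The 4 PMA-treated columns share higher wound, cell cycle and chemokine genes and lower adipocyte and sebaceous genes, while PMA-treated mouse 2 is the highest column for hair and for neutrophil genes.

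Antimicrobial genes of the epidermis gave 7 of 14 called higher and 0 lower (median 2.59; 5 with the series as a covariate). Slpi, the secreted leukocyte protease inhibitor (chromosome 2, 164354070 to 164389095), read 1.23, 2.36, 0.769 and 1.91 CPM without and 41.3, 66.4, 59.5 and 63.5 CPM with PMA, 36.8-fold between means (5.18 ± 0.43, adjusted p = 1.13e-07). Lcn2 (lipocalin 2), which withholds iron from bacteria, read 0.370, 1.14, 1.25 and 0.898 CPM against 12.9, 28.6, 19.4 and 11.5 CPM. Chil1, a chitinase-like protein, rose from 74.2 ± 19.3 to 785 ± 178 CPM (3.40 ± 0.27, adjusted p = 9.39e-08). The beta-defensins did not pass: Defb14 had 0.833 ± 0.647 and 2.13 ± 0.849 CPM and Defb6 4.35 ± 0.669 and 6.10 ± 1.19 CPM.

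Of 25 genes of prostaglandin and leukotriene metabolism 4 rose (16%) and 2 fell (8%), beside 8.96% and 3.99% of all genes (median 0.07). With the series as a covariate 2 rose and 0 fell. Alox8, the 8-lipoxygenase known for its induction by phorbol ester, read 3.21, 4.35, 0.673 and 0 CPM against 18.2, 103, 42.3 and 33.2 CPM (4.57 ± 0.76, adjusted p = 0.00145; 0.0668 with the series as a covariate). Ptges (prostaglandin E synthase) rose from 104 ± 11.3 to 192 ± 32.3 CPM (0.89 ± 0.12) and the phospholipase Pla2g4e from 38.3 ± 7.44 to 92.3 ± 16.9 CPM, while Alox12 (12-lipoxygenase) fell from 99.2 ± 10.7 to 60.4 ± 2.18 CPM (-0.72 ± 0.16). Ptgs1 had 360 ± 37.8 and 377 ± 12.8 CPM (adjusted p = 0.768). Matrix proteases were split in the same way. Of 17 metalloproteinases and inhibitors 4 rose and 3 fell (3 and 0 with the series as a covariate). Timp1 and Mmp3 were among those that rose, and among those that fell were Mmp2 (gelatinase A, 742 ± 55.1 to 465 ± 96.6 CPM, -0.67 ± 0.12) and its regulator Timp2 (239 ± 27.3 to 162 ± 30.5 CPM, -0.56 ± 0.13). Mmp13 read 4.57, 0.946, 0 and 3.14 CPM against 7.22, 15.1, 5.92 and 8.33 CPM, groups that do not overlap but without a call (adjusted p = 0.253).

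Genes of fat cells were lower. Of 16 adipocyte genes 0 were called higher and 11 lower (median -0.66), 13 with DESeq2 and 1 with the series as a covariate. Adipoq (adiponectin) read 69.1, 92.4, 73.5 and 50.5 CPM in untreated and 31.3, 35.6, 24.4 and 19.1 CPM in PMA-treated mice (-1.37 ± 0.22, adjusted p = 0.000285), and it is the 1 that remained with the series as a covariate. Lep (leptin) read 40.1, 49.6, 45.9 and 41.0 CPM against 14.0, 19.8, 5.20 and 8.43 CPM (-1.89 ± 0.36, adjusted p = 0.00120). Plin1, the lipid droplet coat protein, fell from 42.5 ± 12.8 to 18.3 ± 4.48 CPM. The groups do not overlap for Adipoq, Lep or Plin1. Pparg, the master regulator of fat cells, had 30.1 ± 7.13 and 20.8 ± 5.20 CPM (adjusted p = 0.148) and Fabp4 39.2 ± 8.49 and 26.0 ± 6.46 CPM (0.119). Cell numbers were not measured.

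Sebaceous gland genes gave 7 of 16 called lower and 0 higher (median -0.65; 9 lower with DESeq2, 1 with the series as a covariate). Scd1, the stearoyl-CoA desaturase of sebocytes, read 5349, 7377, 5519 and 7277 CPM without and 2326, 2561, 3426 and 3572 CPM with PMA (-1.10 ± 0.16, adjusted p = 0.000110). Scd3, its sebocyte-restricted relative, fell from 28.5 ± 5.16 to 7.11 ± 3.72 CPM (-2.01 ± 0.43). Elovl5, which elongates polyunsaturated fatty acids, fell from 262 ± 44.8 to 117 ± 18.8 CPM and Fa2h, which makes 2-hydroxy fatty acids, from 858 ± 150 to 398 ± 95.9 CPM. Awat2, the wax synthase that marks mature sebocytes, had 13.2 ± 5.00 and 7.0 ± 2.68 CPM without a call (adjusted p = 0.139). Mc5r, the melanocortin receptor of sebocytes, fell from 5.15 ± 1.69 to 1.53 ± 0.955 CPM; that call (adjusted p = 0.0439) was lost without untreated mouse 1, 2 or 4 or PMA-treated mouse 1, 2 or 3 (up to 0.113).

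The circadian clock list held 8 of 18 genes called lower and 0 higher (median -0.48), 10 lower with DESeq2, 5 without untreated mouse 4 or PMA-treated mouse 1, and 1 with the series as a covariate. The labels do not give the hour at which an ear was taken. Npas2, a partner of the core activator, read 11.4, 10.9, 13.6 and 9.99 CPM against 4.73, 3.15, 5.92 and 4.21 CPM, groups that do not overlap (-1.34 ± 0.31, adjusted p = 0.00618). Per2 read 46.5, 61.3, 25.3 and 53.8 CPM against 20.2, 27.1, 22.4 and 19.6 CPM, groups that overlap, and its call (adjusted p = 0.0314) was lost without untreated mouse 1, 2 or 4 or PMA-treated mouse 1, 3 or 4 (up to 0.0910). The core genes Arntl (53.1 ± 12.7 and 49.7 ± 7.28 CPM), Dbp (64.6 ± 9.34 and 50.9 ± 2.86 CPM) and Nr1d1 (383 ± 70.2 and 306 ± 23.8 CPM) were not called.

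**Figure D4:**
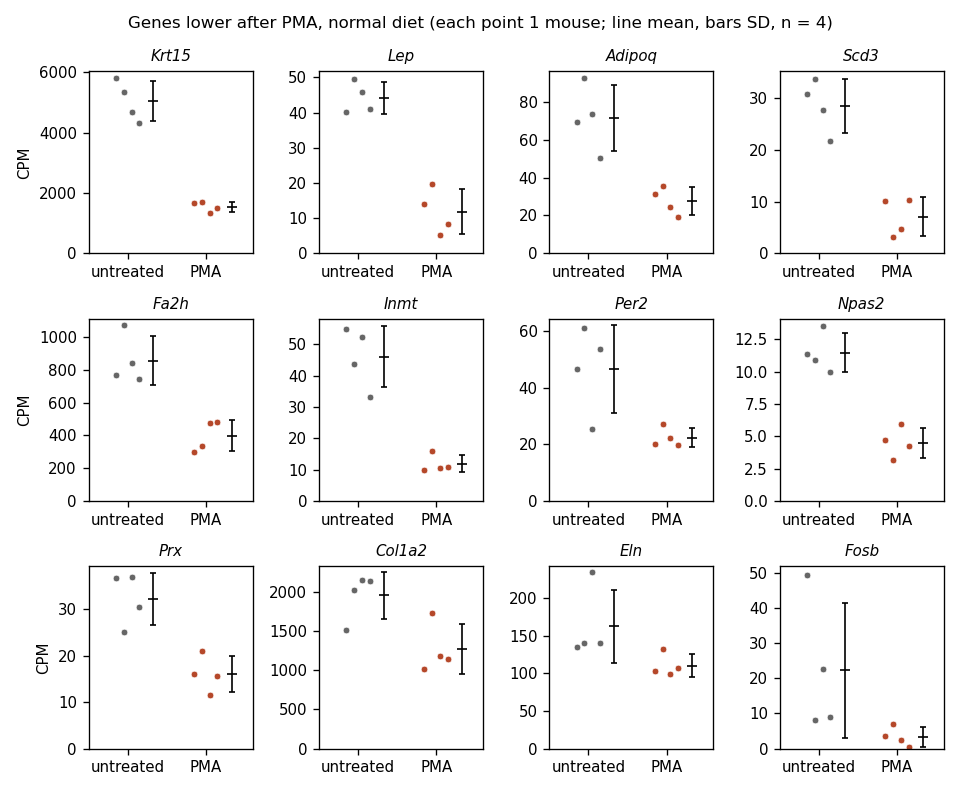
CPM of 12 genes called lower after PMA, in each of the 4 untreated and 4 PMA-treated normal-diet mice (1 point per mouse, linear axis from 0; the line and bars beside the points give the mean and SD). Krt15, Lep, Adipoq, Scd3, Fa2h, Inmt, Npas2, Prx, Eln and Fosb have groups that do not overlap, while Per2 and Col1a2 overlap.

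Genes of the dermis, cartilage, nerve and muscle of the ear were called lower or not at all. The shares called lower were 15%, 25%, 30% and 6.25% of members tested, beside 3.99% of all genes. Of 20 fibroblast matrix genes 3 were lower and 0 higher (median -0.12; 0 in either direction with the series as a covariate); 7 were lower without PMA-treated mouse 2 and 1 without untreated mouse 3 or PMA-treated mouse 1, 3 or 4. Col1a2 fell from 1961 ± 305 to 1272 ± 320 CPM and Dcn (decorin) from 2733 ± 612 to 1842 ± 285 CPM, both with overlapping groups. The Col1a2 call was lost without untreated mouse 3 or 4 or PMA-treated mouse 1, 3 or 4 (adjusted p up to 0.0767) and the Dcn call without untreated mouse 1 or 2 (0.0575). Eln (elastin) was the third gene called lower, and leaving out untreated mouse 3 or PMA-treated mouse 1, 3 or 4 ended that call (up to 0.174). Col3a1 had 2170 ± 461 and 1770 ± 556 CPM (adjusted p = 0.411). Cartilage genes gave 3 of 12 lower and 0 higher, and 0 with the series as a covariate. Col9a3, a chain of the cartilage fibril collagen, read 45.0, 49.9, 52.4 and 51.2 CPM against 22.0, 33, 20.7 and 34.1 CPM (-0.86 ± 0.19, adjusted p = 0.00397), while Col2a1 had 42.2 ± 18.8 and 37.1 ± 17.1 CPM. Schwann cell and nerve genes gave 3 of 10 lower, and 0 without PMA-treated mouse 3 or with the series as a covariate. Prx (periaxin) of myelinating cells fell from 32.3 ± 5.65 to 16.1 ± 3.85 CPM (adjusted p = 0.0147), and it was lost without that mouse (0.0554). Of 16 muscle genes 1 was lower (0 with the series as a covariate); Acta1 ranged from 1469 to 3881 CPM without and from 1444 to 3741 CPM with PMA.

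Hair shaft and inner root sheath genes gave 0 of 21 called in either direction, with a median log2 fold change of 1.42 that came from 1 animal. Krt71, an inner root sheath keratin, read 1.36, 6.05, 5.00 and 24.2 CPM against 0.249, 58.4, 3.18 and 1.85 CPM, the 58.4 in PMA-treated mouse 2. Without that mouse and untreated mouse 4 the median of the list was -0.48. Of endothelial identity genes 1 of 13 was called lower (7.69%, beside 3.99% of all genes), and 0 with the series as a covariate. It was Vwf (34.5 ± 8.94 to 19.4 ± 8.19 CPM, adjusted p = 0.0474). The Vwf groups overlap, and its call was lost without untreated mouse 1, 3 or 4 or PMA-treated mouse 1, 3 or 4 (up to 0.145). Pecam1 had 46.7 ± 9.01 and 55.1 ± 19.7 CPM. Interferon-stimulated genes stood at 2 of 24 called higher, near the background share (0 with the series as a covariate); Isg15 had 0.822 ± 0.732 and 0.972 ± 0.643 CPM.

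Of 27 genes of Wnt, BMP and Hedgehog signalling 4 rose (14.8%) and 6 fell (22.2%), beside 8.96% and 3.99% of all genes. With the series as a covariate 0 were called. Wnt10a, a Wnt ligand of epidermis and follicle, rose from 60.6 ± 12.2 to 97.7 ± 6.89 CPM and Wnt4 from 22.5 ± 4.68 to 38.4 ± 5.52 CPM. Sfrp2, a secreted Wnt modulator of dermal fibroblasts, fell from 44.9 ± 12.3 to 21.4 ± 2.06 CPM (-1.07 ± 0.26, adjusted p = 0.00866). Hhip, the decoy receptor of Hedgehog ligands, had 60 counts over the untreated libraries and 0 over the PMA-treated ones (adjusted p = 0.0115). In HFD mice, within the RHP libraries, its change had the opposite sign without a call by the same test (3.56, adjusted p = 0.16).

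Several of the strongest responses belonged to none of these lists. Cdhr1, a cadherin best known from photoreceptors, read 0, 0.284, 0 and 1.68 CPM without PMA and 30.0, 36.5, 41.6 and 30.5 CPM with it (6.14 ± 0.69, adjusted p = 6.79e-06), the largest increase named by the rule. AI506816, a gene without an assigned function, read 41.0, 36.1, 52.6 and 50.8 CPM against 261, 398, 391 and 398 CPM (3.0 ± 0.20, adjusted p = 9.27e-09). Rab31, a small GTPase of the Golgi and endosomes, rose from 95.8 ± 7.11 to 296 ± 30.6 CPM (1.63 ± 0.12). On the lower side, Inmt, an amine methyltransferase, read 54.9, 43.8, 52.4 and 33.3 CPM against 9.95, 16, 10.5 and 11.0 CPM (-1.95 ± 0.36, adjusted p = 0.000874). Gpm6a, a membrane glycoprotein, fell from 13.7 ± 2.36 to 2.42 ± 1.64 CPM (-2.48 ± 0.38), and Acvr1c, a TGF-beta family receptor of fat cells, from 10.1 ± 2.22 to 1.80 ± 0.885 CPM (-2.48 ± 0.53). In each of these 6 genes the groups do not overlap; with the series as a covariate Cdhr1, AI506816, Rab31 and Inmt remained called, and Gpm6a (adjusted p = 0.0722) and Acvr1c (0.394) did not.

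The HFD mice, which share no library with this comparison, gave 2101 called genes (11.9%), 1292 higher (7.34%) and 809 lower (4.6%). Of the 1577 genes higher in ND, 1535 (97.3%) had the same sign in HFD mice and 935 were called in the same direction, 59.3% of the ND calls and 72.4% of the HFD calls. Of the 702 lower genes 678 (96.6%) had the same sign and 359 were called, 51.1% of the ND and 44.4% of the HFD calls. No ND call was called in the opposite direction, and over all genes tested 73.1% had the same sign. Within the RHP series alone, which holds 3 HFD controls and the 4 HFD_PMA libraries, 939 of the 1575 higher genes tested there (59.6%) and 342 of 699 lower genes (48.9%) were called in the same direction. Those 7 HFD libraries are all of 1 series. Krt16 changed by 3.94 in HFD mice (adjusted p = 0.0015) and by 4.25 within RHP, Slpi by 3.57 and 4.06, and Krt15 by -1.54 and -1.62.

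**Figure D5:**
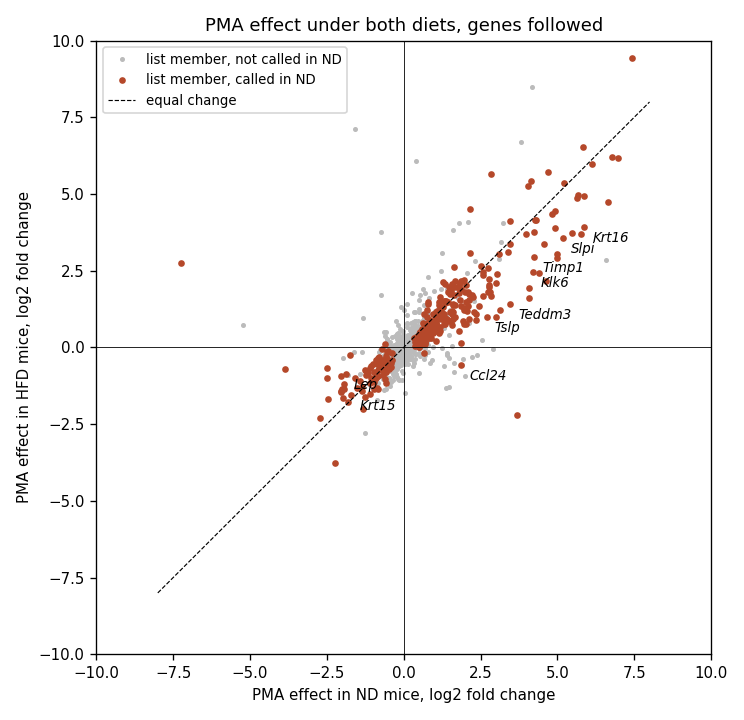
Log2 fold change after PMA in normal-diet mice (horizontal axis) and high-fat-diet mice (vertical axis) for the list members and named genes tested, with those called in ND in red, the others in grey and the dashed line marking equal change. The 2 comparisons share no library; most called genes lie in the quadrants of equal sign, and Teddm3, at 3.45 and 1.43, lies below the line.

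A difference of the PMA effect between the diets was called for 1 gene of 17604 (0.00568%), with 815 (4.63%) at an unadjusted p under 0.05 and 22 called by DESeq2. Teddm3, a transmembrane protein gene on chromosome 16 (21152655 to 21154000), had the smallest adjusted p of the ND comparison. It read 7.90, 8.99, 6.44 and 10.1 CPM in untreated and 84.7, 91.0, 97.7 and 91.7 CPM in PMA-treated ND mice, 10.9-fold between means (3.45 ± 0.18, adjusted p = 3.80e-10). In HFD mice it read 75.4, 58.0, 48.2 and 49.2 CPM without and 137, 191, 156 and 138 CPM with PMA (1.43, adjusted p = 1.06e-05). The difference of the effects was -2.02 ± 0.23 (adjusted p = 0.000538), and -2.41 with the series as a covariate (0.000268). HFD control 1, which belongs to the RHS series like the ND controls, had the highest Teddm3 of the HFD controls. Among genes called in ND, Klk6 had the next smallest p for the difference (-1.74 ± 0.29, adjusted p = 0.0667), with HFD means of 66.2 ± 8.46 and 362 ± 95.9 CPM. Cwh43 (-1.21 ± 0.22), Atp12a (-1.20 ± 0.23), Spink7 (-5.88 ± 1.11), Ccl24 (-2.46 ± 0.49), Tdh (-2.02 ± 0.43) and Ccl6 (-1.12 ± 0.24) followed without passing (adjusted p between 0.0969 and 0.278). All 8 had a higher log2 fold change in ND than in HFD mice; they were picked for a call in ND and the smallest p for the difference.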

How the data were processed

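The authors deposited 1 table of raw read counts per gene for 16 libraries, with a gene length, and these counts were used as deposited. Per the labels' protocols, RNA from TRIzol and a spin column, with ERCC spike-ins, became SMART-Seq2 cDNA and Nextera XT libraries sequenced from both ends. The submitters' processing notes name STAR 2.3, featureCounts 1.5, GRCm38 and mm10; the strand setting and the annotation used for counting are not given there. SMART-Seq2 amplifies polyadenylated RNA by PCR without strand or molecular identifiers, so counting error does not separate PCR copies from molecules. Because the treatment text is identical for all samples, group membership came from titles and from the diet and treatment labels.

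The filter filterByExpr (minimum count 10, minimum total 15) kept 17604 of 48440 genes. Totals were TMM-scaled, and edgeR 4.0.16 (R 4.3.3) gave robust quasi-likelihood tests on 4 group means over all 16 libraries, with Benjamini-Hochberg adjustment over all genes tested and calls at 0.05. The p-values measure the spread between these libraries, 1 per mouse. An SE was obtained as the size of the log2 fold change over the root of its F statistic. The code was tested on simulated counts. Lists were described by counts and medians only, and the members, lists and motifs were chosen with earlier results of these data known. The rule named called genes that averaged at least 5 CPM and had groups that do not overlap (the 12 largest changes each way), up to 4 of the largest called members of a list, list members of textbook role, the 6 smallest p, and up to 8 genes by the p of the diet difference. The text gives part of them, and a few named genes are not reported here. Alternatives were DESeq2 1.42.0, other scalings and filters, the 8 libraries alone, a replicate block, the library series as a covariate, mitochondrial genes left out and each library left out. Positions come from GENCODE M21 (build GRCm38), and promoters were matched by symbol to RefSeq (11688 of 17598 symbols tested).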

Additional observations from a re-analysis of the deposited data

Results flagged for a closer look

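A gap test (Dixon) was run on 590 groups of 4 values, those of the genes and lists named here and of the library measures, and marked 1 library as far from its group in 50. Chance marks about 1 in 20 groups. Of the 50, 18 fell on PMA-treated mouse 2 and 10 on untreated mouse 4. All values below are in CPM unless stated.

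PMA-treated mouse 2 stood above the other PMA-treated mice for neutrophil genes and their attractants, which on mean log2 CPM reached 3.84 for the marker list and 3.19 for the chemokine list. It read 61.6 for Csf3r, 7.98 for Cxcl1, 6.24 for Cxcl2, 3.99 for Cxcl3 and 6.56 for Il19. The same mouse was highest for Junb at 440.2, Dusp6 at 123, Hbegf at 58.2, Socs3 at 144 and Sprr2h at 54.7. It was also highest for Krt71 at 58.4, Mmp2 at 610.4, Mylk2 at 77.1 and C3 at 302, and lowest for the barrier genes Abca12 at 131 and Cers3 at 167.

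Untreated mouse 4 stood above the other untreated mice for wound keratinocyte genes, with Krt16 at 102, Krt6a at 170.1, Krt6b at 110.3, S100a8 at 8.19 and S100a9 at 3.93. Its values of 1.68 for Cdhr1, 1.68 for Cxcl5, 1.68 for Dsg4 and 1.91 for Isg15 were low in level and also apart, and it was lowest for Tmem35 at 8.64.

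The other marks were spread over the libraries. Among untreated mice, mouse 1 was apart for Il1b at 5.68, Ly6c2 at 0.864 and Thrsp at 12.3. Mouse 2 was apart for Selplg at 35.8 and Tgfa at 53.0, and mouse 3 for Eln at 235, Hdc at 2.40, Krt5 at 3456, Nr1d1 at 488 and Serpina3b at 17.5. Among PMA-treated mice, mouse 1 was apart for AI506816 at 261, Arntl at 60.6, Cpa3 at 58.3, Krt6a at 890.1, Odc1 at 63.1 and Prkca at 49.5. PMA-treated mouse 4 was apart for Defb14 at 3.39, Retn at 5.24, Serpina3b at 11.3 and Sprr1a at 298, and was lowest for the endoplasmic reticulum list at 6.94 log2 CPM. PMA-treated mouse 3 had 22061 genes detected, where the others had 21013 to 21050.

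The PMA effect differed between the diets for Teddm3, by -2.02 on the log2 scale (HFD minus ND), in the test of the difference itself.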

How the results depend on the processing

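The count of 2279 genes called in ND was 2754 with DESeq2 and lay between 1657 and 2334 under other scalings, filters, the 8 libraries alone, a replicate block (2192) and mitochondrial genes left out. It was 453 with the library series as a covariate, a fit whose series term rests on 1 RHS and 3 RHP control libraries. Leaving out 1 library gave 1763 to 2158, and leaving out PMA-treated mouse 2 and untreated mouse 4 together gave 1859, of which 1522 were among the 2279. Among named genes called in the main or the alternative fit, Atf3 was the 1 whose sign turned. It was at -0.88 with the series as a covariate (the cause was not tested). Changes of sign in genes without a call were not counted here. Abca12, for example, ranged from -0.07 to 0.15 with 1 library left out. The HFD count of 2101 ranged from 1205 (without HFD_PMA 2) to 2139 with 1 library left out, and was 1396 without HFD_cont 3. The count of genes whose PMA effect differed between diets was 1, 22 with DESeq2, 2 without a filter, with a strict filter, with a replicate block and with the series as a covariate, and 1 to 4 with 1 library left out (4 without ND_cont 2; the cause was not tested). A pairing of mice by replicate number was not evident, though 4 mice per group are too few to exclude it. Deviations of same-numbered mice correlated at 0.08, -0.06, -0.07 and 0.07, and only mice 1 and 4 correlated best with their own number. Genes near 0 CPM without PMA have fold changes that depend on the prior count.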

Other observations

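Junction genes held their level apart from gap junctions. Of 21 desmosome, tight junction and gap junction genes 2 rose and 1 fell, with a median log2 fold change of 0.08 beside the 8.96% and 3.99% of all genes. Besides Gjb2, Gja1 (connexin 43) rose from 255 ± 31.0 to 585 ± 92.5 CPM (SD, n = 4; log2 fold change 1.20 ± 0.19, adjusted p = 0.000218 by edgeR's quasi-likelihood test). Desmoplakin (Dsp) had 2785 ± 366 and 2813 ± 510 CPM and E-cadherin (Cdh1) 477 ± 63.8 and 446 ± 40.2 CPM, both uncalled. Gjb2 and Gja1 remained called with the library series as a covariate. The gene that fell, Ocln (occludin), lost its call (adjusted p = 0.0385) without untreated mouse 1 or 4 or PMA-treated mouse 1, 2 or 3 (up to 0.131).

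Barrier lipid genes gave 6 of 21 higher and 2 lower, 3 higher without untreated mouse 3 or PMA-treated mouse 3, and 0 with the series as a covariate. Degs1, the dihydroceramide desaturase, rose from 267 ± 30.2 to 395 ± 31.1 CPM (0.57 ± 0.10) and Cers3, the ceramide synthase for ultra-long chains, from 152 ± 15.8 to 217 ± 33.9 CPM (0.52 ± 0.12). Sult2b1, the cholesterol sulfotransferase, rose from 30.2 ± 9.78 to 53.5 ± 5.82 CPM. Abca12, the lamellar granule transporter, had 217 ± 16.3 and 218 ± 57.9 CPM (adjusted p = 0.989).

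Among 16 complement genes 2 rose (12.5%) and 1 fell (6.25%), near the 8.96% and 3.99% of all genes. Cfp (properdin) rose from 40.4 ± 4.25 to 113 ± 41.4 CPM (1.49 ± 0.21, adjusted p = 8.12e-05) and C3ar1, the receptor for the C3a fragment, from 20.5 ± 4.74 to 50.3 ± 9.28 CPM, while C7 of the membrane attack complex fell from 63.2 ± 12.4 to 29.6 ± 5.40 CPM. C3 itself had 226 ± 84.1 and 224 ± 52.6 CPM (adjusted p = 0.976). With the series as a covariate none of these 3 was called.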
